A study of Rattus norvegicus with 21 samples.

Results

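The nuclear genes for subunits of the respiratory chain were followed in islets of Langerhans, the hormone-secreting clusters of the pancreas, of Lewis rats. The PX rats had 90% of the pancreas removed (partial pancreatectomy), and the sham rats had a sham operation; both were followed for 4 weeks. There were 11 PX and 10 sham libraries of polyadenylated RNA, each named here by the animal number in its title. All libraries share the strain, the time and the entry Inc_YES in their titles, whose meaning is not given. A further label of all 21 samples reads 4 to 5 weeks, which may be an age or a time after the operation, and no sex or genotype is given. The labels' average blood glucose before the animals were killed (BG, unit not given) ran between 101 and 174 in PX and between 82 and 104 in sham rats. Nothing beyond the animal number states that libraries came from separate animals, and p-values therefore speak of the spread among libraries.

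The genes were those of the nuclear chromosomes whose symbols begin as the Nduf, Sdh, Uqcr, Cox or Atp5 families do, by fixed letter patterns. This took 85 of the 28914 gene rows: 38 of complex I, 4 of complex II, 8 of complex III, 17 of complex IV and 18 of complex V. The patterns also took symbols that are not classical subunits. Atp5if1 encodes an inhibitor of the ATP synthase, Cox7a2l an assembly factor of supercomplexes, Ndufa4l2 and Ndufa10l1 are paralogs, and Cox6c-ps1 is a pseudogene. Ndufa4, counted here by its symbol under complex I, is now placed in complex IV. Reads of 3 members are listed on more than 1 chromosome (Cox6b1, Uqcrb and Ndufv3), 38 members have a named pseudogene in RefSeq, and the strand setting of the counting is not given, so counts may hold reads of near-identical copies or of antisense genes. Cox7a2l2 gets no role here, because the chromosome listed for it differs from that of the RefSeq gene of this name.

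Complexes I and II pass electrons of NADH and succinate to ubiquinone, complex III hands them to cytochrome c, complex IV to oxygen, and complex V uses the resulting proton gradient to make ATP. In beta cells ATP made from glucose closes potassium channels and triggers insulin release. Most subunits are encoded in the nucleus and imported, while the rest of complexes I, III, IV and V is encoded by the mitochondrial genome, so both genomes supply each of these machines.

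The transcription factors known for promoters of such genes are NRF1, the ETS factor GABP (also called NRF-2), YY1 and the estrogen-related receptor alpha (ERRA). RefSeq promoters (rat build GRCr8, 250 bases before and 50 after the gene start) were at hand for 75 of 85 members. These 6 stretches of 80 bases upstream of the start show each motif at least once and each complex at least once, and include the called genes Uqcrh and Atp5mc3; they were chosen after the values were seen. Capitals mark a motif on either strand.
Ndufs1: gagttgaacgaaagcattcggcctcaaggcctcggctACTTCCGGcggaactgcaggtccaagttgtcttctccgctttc
Sdha: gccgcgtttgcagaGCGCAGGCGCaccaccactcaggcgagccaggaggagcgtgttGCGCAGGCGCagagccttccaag
Uqcrh: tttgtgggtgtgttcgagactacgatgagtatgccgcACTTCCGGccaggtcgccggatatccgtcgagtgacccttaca
Cox8a: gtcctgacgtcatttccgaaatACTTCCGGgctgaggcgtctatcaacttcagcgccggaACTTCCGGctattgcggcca
Atp5mc3: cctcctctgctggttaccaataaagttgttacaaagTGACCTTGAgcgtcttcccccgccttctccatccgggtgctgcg
Atp5pf: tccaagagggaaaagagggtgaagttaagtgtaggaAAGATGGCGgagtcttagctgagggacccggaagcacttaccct
The Ndufs1 stretch (complex I) lies at chr9:72073763-72073842 on the minus strand and holds the ETS motif. The Sdha stretch (complex II) lies at chr1:30764450-30764529 on the plus strand and holds the NRF1 motif at 2 places. The Uqcrh stretch (complex III) is chr5:134790924-134791003 on the minus strand, with the ETS motif, and that of Cox8a (complex IV) is chr1:213833624-213833703 on the minus strand, with the ETS motif at 2 places. Of complex V, Atp5mc3 at chr3:79220678-79220757 on the minus strand holds the ERRA motif, and Atp5pf at chr11:37375169-37375248 on the minus strand holds the YY1 motif.

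The motif letters searched on both strands were CCGGAAGT for ETS, AAGATGGCG for YY1, TCAAGGTCA for ERRA, and for NRF1 the bases GCGCA, any base and GCGC. The NRF1 letters stood in 18.7% of the members' promoters, against 4.25% of all 33469 RefSeq promoters and 9.54% of the promoters of genes tested here. For ETS the shares were 10.7% of members, 3.81% of all and 7.89% of tested genes. For YY1 they were 13.3%, 1.73% and 3.64% in the same order, and for ERRA 2.67%, 0.433% and 0.305%. At least 1 of the motifs stood in 31 of 75 member promoters (41.3%), against 9.45% of all and 19.4% of tested genes. A match describes letters only and is no evidence of binding. The members with a motif had a median log2 fold change of 0.31 between PX and sham islets with 3 of 31 called higher, and the tested members without one had 0.29 with 7 of 36 called.

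The totals ran from 4001908 to 13187959 counts per library. Values below are CPM, counts relative to the library total, scaled by TMM, which corrects each library's total for the make-up of its RNA. The correction was largest in PX 65, whose factor was 0.359, against 0.820 to 1.27 in the other libraries. Beta cell markers were high in both groups, and their sum ran from 75439 to 226626 CPM in PX and from 82595 to 158926 CPM in sham islets. Of the 6 beta cell markers Iapp was called higher and Ucn3 lower in PX islets, of 3 alpha cell markers 2 were lower, Irx2 among them, and of 2 delta cell markers Sst was lower. All 7 macrophage markers were called higher in PX islets, with summed levels from 75.1 to 437 CPM in PX and from 23.7 to 69.1 CPM in sham islets, and all 8 mesenchymal markers, with 606 to 2663 CPM in PX and 180.0 to 735 CPM in sham islets. Of 10 acinar markers (digestive enzymes of the exocrine pancreas) 1 was called higher. Their sum ran from 38412 to 1018480 CPM in PX and from 4100 to 192332 CPM in sham islets. The highest was that of PX 65, whose library size for CPM was 4723096 after TMM and 13187959 before. That sum passes the scaled size, not the raw total. Of the duct markers 2 of 3 tested, Krt19 and Cftr, were higher, of the endothelial ones Cdh5 of 3, and of the muscle ones Acta1 was the only one tested and was higher. No lymphocyte marker passed the count filter, and no marker found in the count table had 0 counts throughout. Beyond the fits with marker scores as covariates given below, the part of these cells in the results was not tested.

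Levels per kilobase of transcript put complex V at the top. Over the 21 libraries Atp5mg (subunit g of the membrane part) averaged 316 CPM per kb, Atp5f1b (the catalytic beta subunit) 311 and Atp5f1a (the alpha subunit) 302 CPM per kb, and these differ by less than the spread between libraries. The next were Cox7c of complex IV at 186, Atp5mc2 (a gene for the rotating c ring) at 172 and Atp5pd (subunit d of the peripheral stalk) at 142 CPM per kb. The 4 subunits of complex II lay close together, between 60.7 CPM per kb for Sdhb and 85.6 for Sdhc. In the catalytic core of complex I, Ndufs7, which carries the last iron-sulfur cluster, averaged 21.05 CPM per kb and Ndufs1 49.6. Uqcrb, the ubiquinone-binding subunit of complex III, was listed at 5.46 CPM per kb, the lowest of its complex, and its reads are among those listed on more than 1 chromosome.

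**Figure D1:**
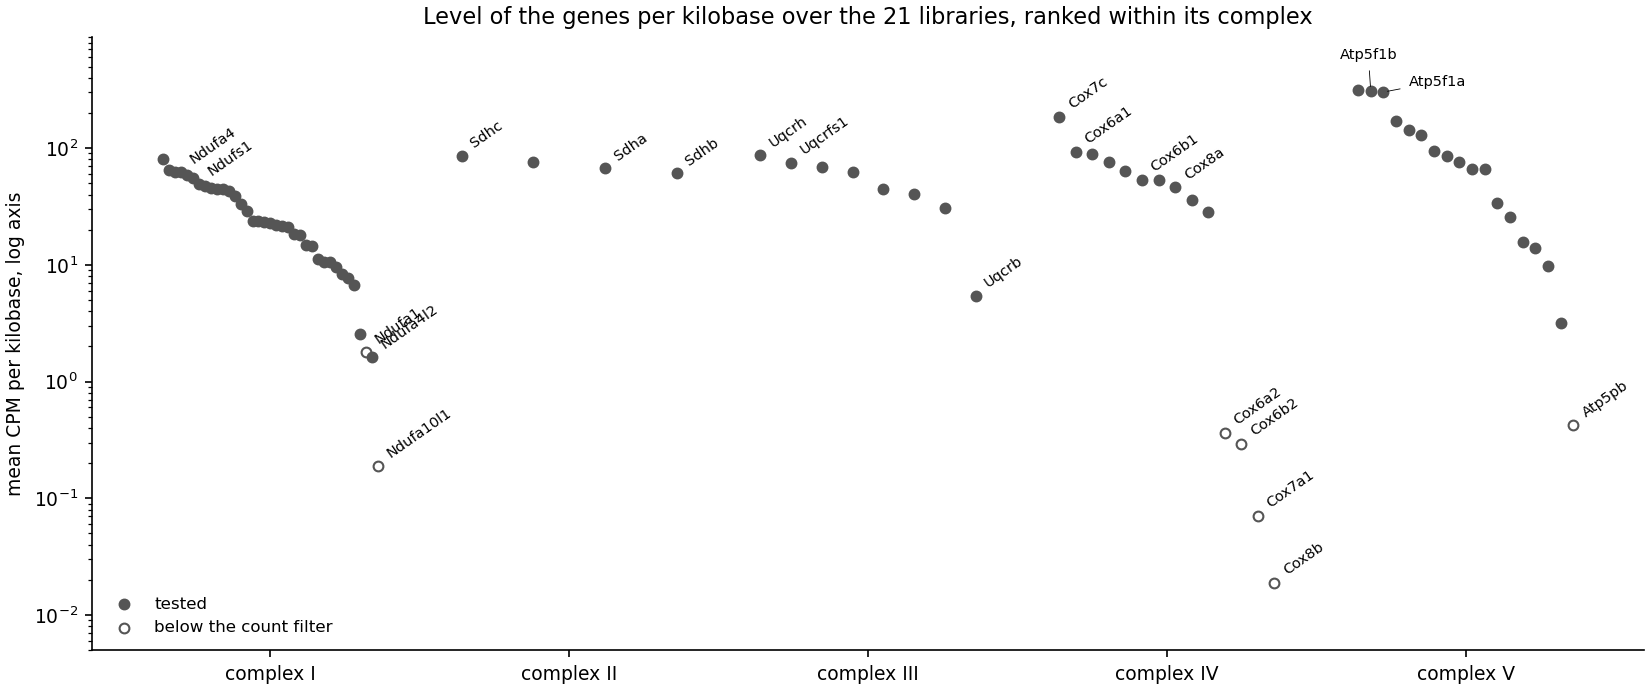
Mean level of the genes over the 21 libraries in TMM-scaled CPM per kilobase (log axis), ranked within its complex; filled points were tested and open points fell under the count filter. Atp5f1a and Atp5f1b lie near the top of complex V at 302 and 311 CPM per kb, and Cox6a2, Cox6b2, Cox7a1 and Cox8b lie below 1 CPM per kb; the 3 genes with no count, and 1 tested gene not reported here, are not drawn.

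In the pairs below of a widely expressed gene and a muscle, testis, stress or other paralog, the islet libraries carried mostly the first. Cox6a1 stood 253-fold above Cox6a2, the heart and muscle form, per kilobase, and Cox6b1 184-fold above the testis form Cox6b2. Cox6a2 had 20 counts over 7 of 11 PX libraries and 4 counts over 3 of 10 sham libraries. Cox8a had 3542 counts and the muscle form Cox8b had 1. Cox7a1, the muscle form of another small subunit, had 18 counts in all, and its partner Cox7a2 is not among the members by name. Ndufa4 lay 38.3-fold above Ndufa4l2, a hypoxia-inducible paralog, and Ndufa10 50.8-fold above Ndufa10l1. Ndufa4l2 still had counts in all 11 PX and 10 sham libraries. Cox8c, Cox7b2 and Cox6c-ps1 had 0 counts, which allows up to 3 counts over all libraries, or 0.0190 CPM of the summed totals, by counting error only. In all, 10 members did not pass the count filter of edgeR and were not tested: these 3, Cox6a2, Cox6b2, Cox7a1, Cox8b, Ndufa1 (an accessory subunit of complex I), Ndufa10l1 and Atp5pb (subunit b of the peripheral stalk). Ndufa1 had 58 counts and Atp5pb 144 counts over all libraries, with medians of 0.905 CPM in PX and 0.713 CPM in sham islets for Atp5pb, although both encode subunits of the assembled complexes.

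Between PX and sham islets 12 of the 75 tested members were called higher and 0 lower, by edgeR's quasi-likelihood test at an adjusted p under 0.05. Among all 13136 tested genes 14.9% were called higher, 16.2% lower and 31.1% either way. The members' share called higher is near that background. The unadjusted p was under 0.05 for 25 of the 75 members, all of them higher in PX. The share of all genes at that level was not counted, so this number has no background beside it. The sign was less evenly spread: the log2 fold change was above 0 for 71 of 75 members, against 45.6% of all tested genes, and the median was 0.31 for the members and -0.040 for all genes. No member had PX and sham values that did not overlap, against 1.70% of tested genes. The members' share of all raw counts was 0.426 ± 0.0747% in PX and 0.424 ± 0.0539% in sham libraries. With library totals alone 0 members were called, while 7.54% of all tested genes were called higher. There the members' median was 0.0043 beside -0.28 for all genes. The distance between members and all genes was thus 0.284 with totals and 0.346 with TMM.

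Every complex had a median above 0. The median log2 fold change was 0.30 for complex I with 6 of 36 tested members called, 0.33 for complex II with 1 of 4, 0.31 for complex III with 1 of 8, 0.39 for complex IV with 2 of 10, and 0.26 for complex V with 2 of 17. Most of the tested members are short genes, under 1000 bases, and the median of other short genes was also above 0. Under 600 bases the 31 members had a median of 0.36 and the 592 other tested genes 0.14. From 600 to under 1000 bases the 20 members had 0.36 and the others 0.17, and from 1000 bases upward the 24 members had 0.24 and the others -0.064. Across the 75 members the log2 fold change went with log2 length at Pearson r = -0.30 and Spearman rho = -0.31, and with the log2 level per kilobase at r = 0.10 and rho = 0.20, as descriptions over genes that share all libraries.

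**Figure D2:**
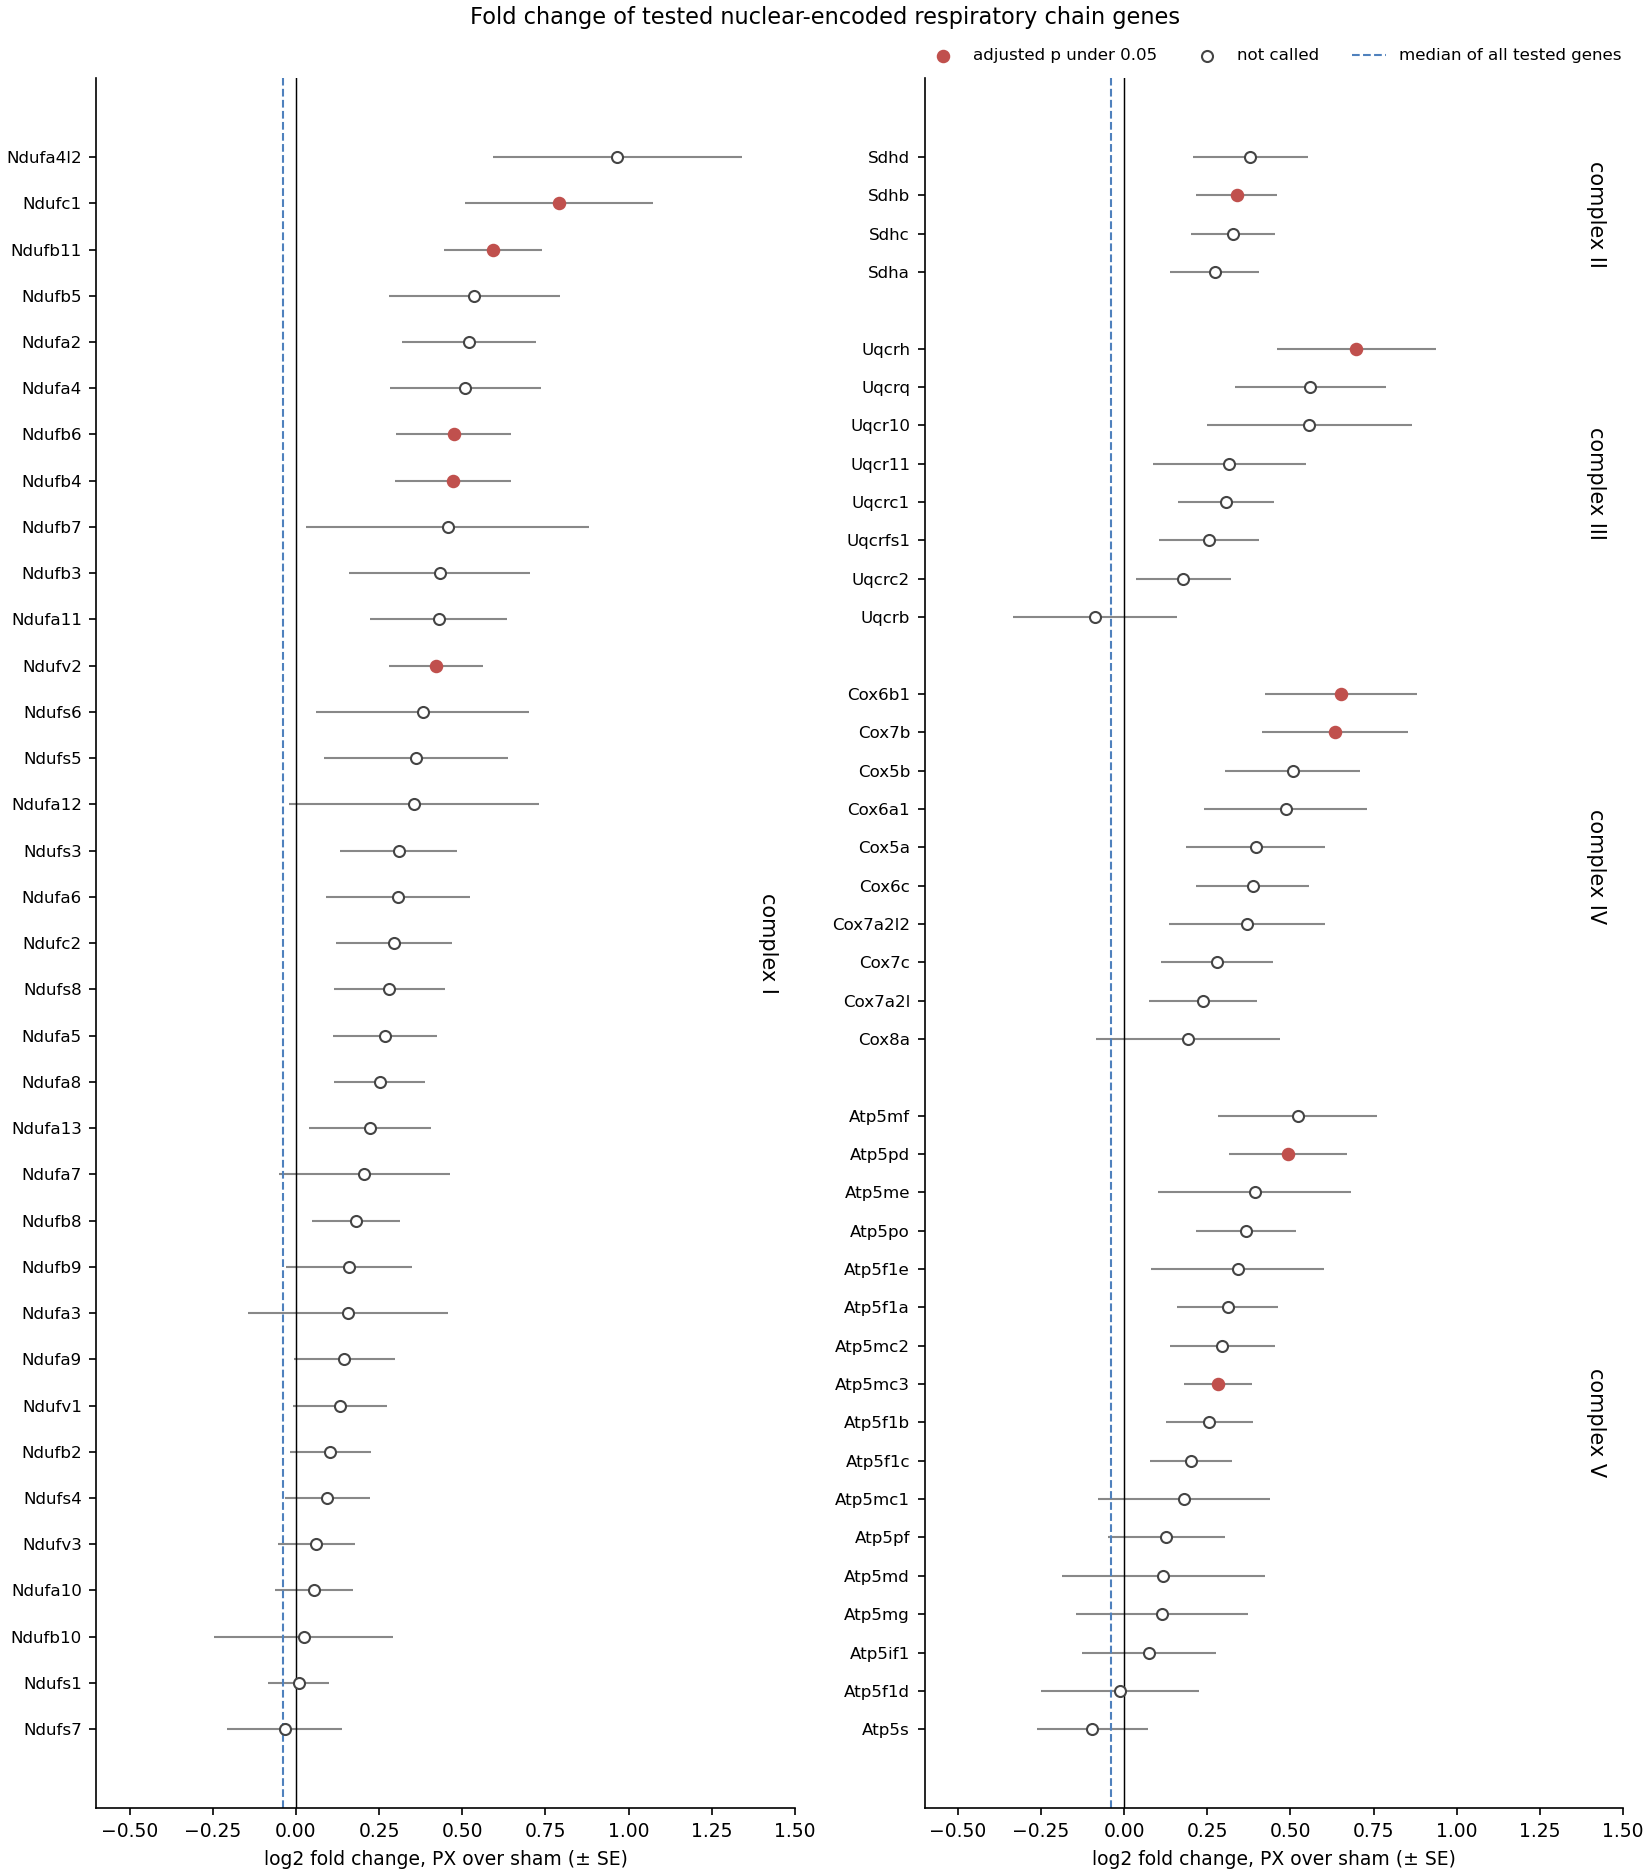
Log2 fold change of the tested members, PX over sham, with its standard error, grouped by complex; filled points passed an adjusted p under 0.05. Of the 74 members drawn 70 lie above 0 and the 11 called ones are all higher in PX, from 0.28 for Atp5mc3 to 0.79 for Ndufc1.

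In complex I, Ndufv2, a core subunit that carries an iron-sulfur cluster of the NADH-oxidising arm, was called. It had lowest, median and highest levels of 38.3, 65.96 and 90.4 CPM in PX and 35.5, 45.7 and 65.4 CPM in sham islets. Its PX values exceeded the highest sham value in 6 of 11 PX libraries, and the log2 fold change was 0.42 ± 0.14 (SE) with an adjusted p of 0.0257.

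Several other core subunits were not called. Ndufs1, the largest of them, an iron-sulfur protein, had 96.5, 121 and 159.6 CPM in PX and 102, 119 and 151 CPM in sham islets, with a log2 fold change of 0.0088 ± 0.092 (SE). The ranges of the groups nearly coincide. Ndufv1, which binds NADH and the flavin, gave 0.13 ± 0.14 (SE). Ndufs3 gave 0.31 ± 0.18 (SE) and Ndufs8, an iron-sulfur subunit next to Ndufs7, 0.28 ± 0.17 (SE). Ndufs7 gave -0.035 ± 0.17 (SE), the lowest of complex I. Over the 27 accessory subunits the median was 0.29 with 4 called.

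Ndufb11, an accessory subunit of the membrane arm, had 20.1, 47.01 and 65.8 CPM in PX islets and 25.6, 28.7 and 38.1 CPM in sham islets. The values of 8 of 11 PX libraries lay above the highest sham value, while the lowest, PX 37, lay below the lowest sham value. Its log2 fold change was 0.59 ± 0.15 (SE) with an adjusted p of 0.00372, the smallest of any member. Ndufc1 had 3.61, 20.2 and 63.3 CPM in PX and 7.54, 13 and 20.1 CPM in sham islets, and PX 65 was highest and PX 37 again lowest of all 21 libraries. The log2 fold change was 0.79 ± 0.28 (SE) with an adjusted p of 0.0356, and it was 0.45 and not called without PX 65 and sham 46. Ndufb6 had 3.82, 5.61 and 8.44 CPM in PX and 2.69, 4.32 and 6.02 CPM in sham islets, a log2 fold change of 0.47 ± 0.17 (SE) and an adjusted p of 0.0383. Ndufb4, with 3.38, 5.804 and 10.4 CPM in PX and 3.03, 4.501 and 5.34 CPM in sham islets, gave 0.47 ± 0.17 (SE) with an adjusted p of 0.0417. Both were higher than the sham median in 9 of 11 PX libraries.

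Ndufa4l2 had the highest log2 fold change of complex I but was not called: it had 0.2599, 2.11 and 3.36 CPM in PX and 0.177, 0.886 and 1.92 CPM in sham islets, for 0.97 ± 0.37 (SE) and an adjusted p of 0.0512. It was called with DESeq2 size factors and with an acinar score covariate, at 1.02 and 1.27. Ndufa4 itself had 17.6, 50.8 and 103 CPM in PX and 22.7, 40.4 and 54.9 CPM in sham islets, at 0.51 ± 0.23 (SE) with an adjusted p of 0.0906. Of the 36 tested complex I members 30 were not called, and 35 had a log2 fold change above 0.

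Complex II, the succinate dehydrogenase shared with the citric acid cycle, has no subunit from the mitochondrial genome, and its 4 genes gave similar differences. Sdhb, the iron-sulfur subunit, had 50.1, 61.7 and 84.7 CPM in PX and 42.2, 49.02 and 79.7 CPM in sham islets. All 11 PX libraries lay above the sham median, and the log2 fold change was 0.34 ± 0.12 (SE) with an adjusted p of 0.0352. The membrane anchor Sdhc had 64.5, 109 and 149 CPM in PX and 69.9, 79.5 and 121 CPM in sham islets, at 0.33 ± 0.13 (SE) and an adjusted p of 0.0501, which misses the threshold. The second anchor Sdhd gave 0.38 ± 0.17 (SE) with an adjusted p of 0.09698, and the flavoprotein Sdha, which oxidises succinate, 0.27 ± 0.13 (SE) with an adjusted p of 0.122.

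In complex III, Uqcrh, the acidic hinge subunit beside the cytochrome subunit, had 22.3, 52.2 and 123 CPM in PX islets and 21.2, 31.5 and 55.97 CPM in sham islets. PX 65 was highest, 4 of 11 PX libraries exceeded the highest sham library (sham 46), and the log2 fold change was 0.70 ± 0.24 (SE) with an adjusted p of 0.0292. The other 7 members were not called. Among them Uqcrq and Uqcr10, small subunits, gave 0.56 ± 0.23 (SE) and 0.56 ± 0.31 (SE). Uqcrfs1, the Rieske iron-sulfur protein, gave 0.25 ± 0.15 (SE), the core proteins Uqcrc1 and Uqcrc2 0.31 ± 0.14 (SE) and 0.18 ± 0.14 (SE), and Uqcrb -0.088 ± 0.25 (SE).

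In complex IV, Cox6b1, on the face that meets cytochrome c, and Cox7b, a small membrane subunit, were called. Cox6b1 had 29.3, 41.1 and 105 CPM in PX and 21.2, 36.1 and 49.96 CPM in sham islets. The medians lay closer than the extremes: PX 65 and PX 62 were highest, 5 of 11 PX libraries exceeded every sham library, and the log2 fold change was 0.65 ± 0.23 (SE) with an adjusted p of 0.0326. Cox7b had 23.5, 44.9 and 105 CPM in PX and 22.4, 30.96 and 59.8 CPM in sham islets. PX 65 and PX 57 exceeded every sham library, and the log2 fold change was 0.63 ± 0.22 (SE) with an adjusted p of 0.03002. Without PX 65 and sham 46 together Cox7b was 0.43 and not called. Cox6a1 had 21.9, 59.4 and 97.5 CPM in PX and 25.4, 38.9 and 96.9 CPM in sham islets, where the highest value is that of sham 46. It gave 0.49 ± 0.25 (SE) with an adjusted p of 0.136, and 0.67, called, without PX 65 and sham 46. Cox8a gave 0.19 ± 0.28 (SE), the lowest of the complex, and Cox5a and Cox5b, subunits on the matrix side, 0.40 ± 0.21 (SE) and 0.51 ± 0.20 (SE), neither called.

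In complex V, Atp5pd had 80.3, 117 and 197 CPM in PX and 60.8, 87.1 and 150.4 CPM in sham islets. Its log2 fold change was 0.49 ± 0.18 (SE) with an adjusted p of 0.0359, and 9 of 11 PX libraries lay above the sham median. Atp5mc3, one of the genes that encode the same c-ring subunit, had 38.3, 55.5 and 67.1 CPM in PX and 36.9, 40.6 and 53.2 CPM in sham islets. 6 of 11 PX libraries exceeded the highest sham value, and the log2 fold change was 0.28 ± 0.10 (SE) with an adjusted p of 0.0391, the smallest change called. The other c-ring genes Atp5mc2 and Atp5mc1 gave 0.30 ± 0.16 (SE) and 0.18 ± 0.26 (SE), not called. The catalytic subunits were high in both groups: Atp5f1a had 425, 497 and 1041 CPM in PX and 403, 479.9 and 683 CPM in sham islets, and Atp5f1b 359, 616 and 764 CPM in PX and 369, 469.7 and 721 CPM in sham islets. Their log2 fold changes were 0.31 ± 0.15 (SE) and 0.26 ± 0.13 (SE), with adjusted p of 0.122 and 0.136. Atp5mf, subunit f, had the highest log2 fold change of the complex at 0.52 ± 0.24 (SE) and was not called. The inhibitor Atp5if1 gave 0.073 ± 0.20 (SE) and Atp5s, a protein not counted among the subunits, -0.095 ± 0.17 (SE), the lowest.

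Summing the members of each complex puts single libraries in view. Complex I summed to 1152 ± 251 CPM in PX and 953 ± 121 CPM in sham islets (SD, n = 11 and 10), a ratio of 1.21. Complex II summed to 446 ± 105 CPM in PX and 357 ± 65.8 CPM in sham islets (ratio 1.25), and complex III to 474 ± 137 CPM in PX and 373 ± 75.2 CPM in sham islets (ratio 1.27). Complex IV summed to 472 ± 141 CPM in PX and 356 ± 68.04 CPM in sham islets (ratio 1.33) and complex V to 2180.2 ± 487 CPM in PX and 1809 ± 254 CPM in sham islets (ratio 1.21). After TMM the libraries at the extremes were shared: PX 65 was highest and PX 37 lowest of the PX libraries in every complex. PX 65 also has the lowest TMM factor, the highest acinar marker sum and the highest BG. Before TMM the members made up 0.256% of the raw counts of PX 65, the lowest share of all 21 libraries. Its top rank is thus one of TMM-scaled values only. Over all members the sums ran from 4138 to 7147 CPM in PX 57 to 70, from 3088 to 4341 CPM in PX 36 to 44, from 3691 to 4731 CPM in sham 46 to 50 and from 2894 to 4196 CPM in the other 5 sham libraries. Each such run of animal numbers holds 1 group only, so an effect of the run and one of the operation cannot be told apart. The acinar scores (mean log2 CPM of the markers) were 13.8 ± 0.985, 11.8 ± 0.582, 13.01 ± 0.4404 and 9.33 ± 1.21 in these 4 runs in the order just given (SD, n = 6 and 5, then 5 and 5).

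**Figure D3:**
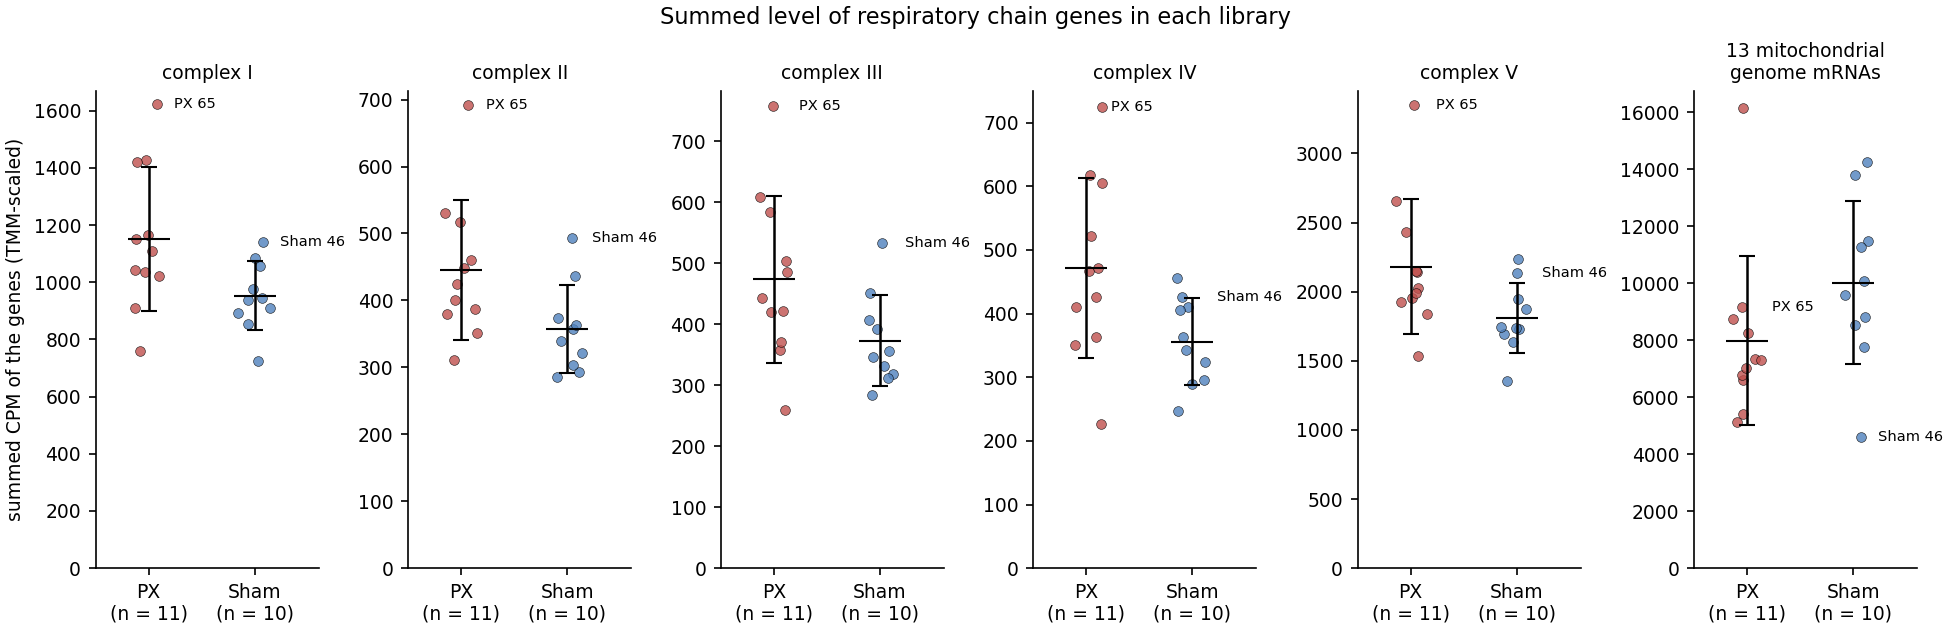
Summed TMM-scaled CPM of the members of each complex and of the mRNAs of the mitochondrial genome, 1 point a library, PX left of sham, with group mean and SD. PX 65 is the highest point in the 5 nuclear panels, and the groups overlap in every panel; complex I averages 1152 CPM in PX and 953 CPM in sham islets.

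The calls turned on scaling and on the marker scores. TMM scaled to sham 47 called 17 members higher, and 16.7% of all tested genes (median 0.35, beside 0.012 for all genes). With the acinar score as a covariate 2 members were called, Ndufb11 and Ndufa4l2, and the median was 0.13 beside -0.041. That fit called 10.6% of all tested genes higher. With totals that leave out the acinar markers 0 were called, against 9.37% of all tested genes called higher, and the median was 0.10 beside -0.19. With macrophage and mesenchymal scores in the model 0 were called and the median turned to -0.30, beside 0.0010 for all genes. There the unadjusted p of edgeR's test was under 0.05 for 16 members below 0 and for 2 above. The share of all genes at that level was not counted in that fit, so these numbers have no background beside them. The macrophage scores of the groups do not overlap, at 3.08 to 5.60 in PX and 1.499 to 2.89 in sham libraries, and that fit called 9 genes in all. With only the 8 PX animals of BG 121 or less, 1 member was called, Ndufb11. In bulk islets a larger share of cells rich in a transcript and more of it per cell cannot be told apart.

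**Figure D4:**
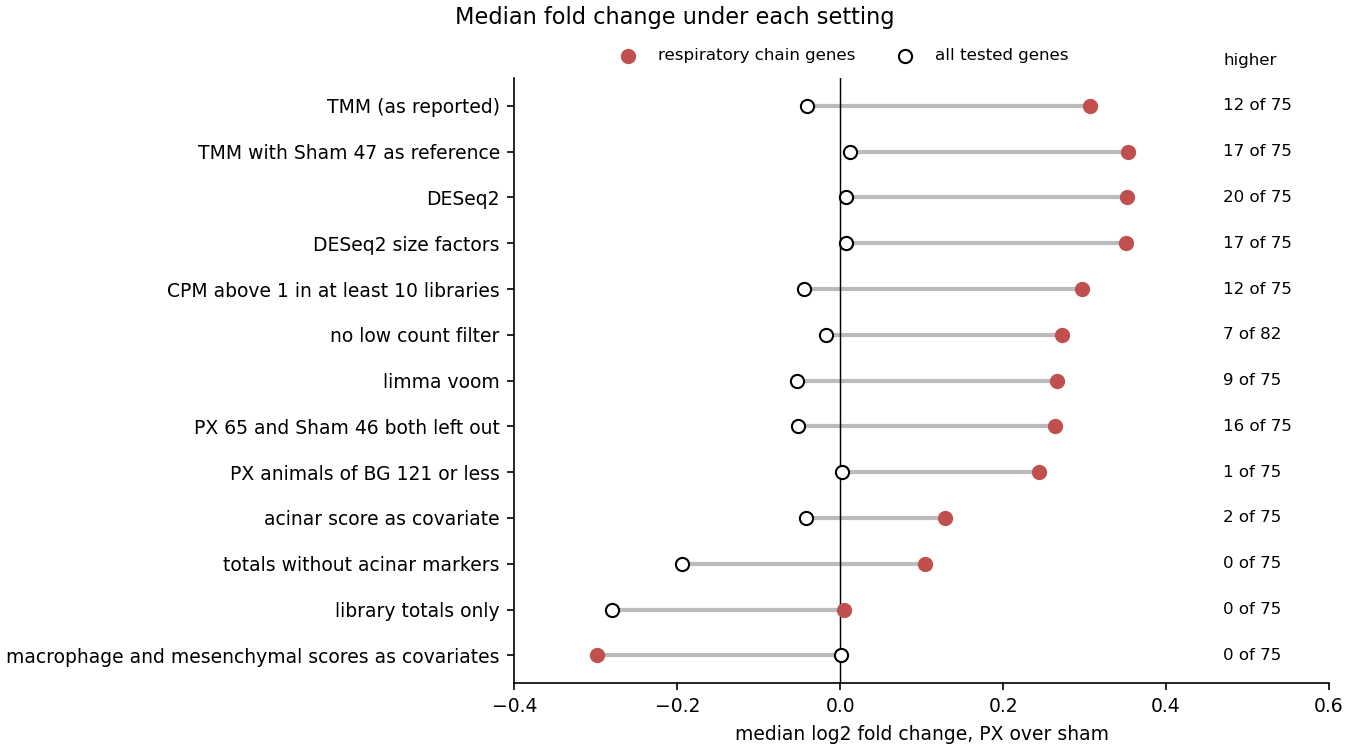
Median log2 fold change, PX over sham, of the members and of all tested genes under each setting, with the number of members called. The members' median lies above that of all genes in every setting drawn except the fit with macrophage and mesenchymal scores, where it is -0.30 beside 0.001.

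Leaving out single libraries moved the number called between 2 of 75, without PX 65, and 28 of 75, without PX 37. Of all tested genes 13.1% were called higher without PX 65 and 18.4% without PX 37. The number of members was 4 without PX 57 or PX 62, 6 without sham 48, 7 without PX 58 and 8 without sham 50. In those fits 13.2% to 14.0% of all tested genes were called higher. It was 19 members without PX 36 or sham 21, 25 without PX 44 and 27 without sham 46, where 16.1% to 19.8% of all tested genes were called higher. Part of this movement follows from TMM, which then scales to another library: with the scaling library held fixed the range was 9 to 28. The fixed library was sham 47, or sham 48 where sham 47 was left out. Scaled to sham 47, the fit on all libraries called 17 members. The median of the members minus that of all genes stayed between 0.285 and 0.398 in these fits. Ndufb11 was called in each of the 21 fits, with adjusted p from 1.0e-04 to 0.00848. Atp5pd was called in 12 of them, and Atp5mc3, Ndufb6 and Sdhb in 15 each. In the authors' deposited table, 75 members were listed, of which 9 were higher and 0 lower (14.0% of its 13140 genes were higher), with a median log2 fold change of 0.27 beside -0.053 for all genes, and all 9 are among the 12 called here.

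The genes for the same complexes in the mitochondrial genome went the other way. Of 13 protein genes 9 were called lower in PX islets and 1, Mt-nd6, higher, with a median of -0.67. Mt-nd1, a membrane subunit of complex I, averaged 67.3 ± 14.4 CPM in PX and 135 ± 56.5 CPM in sham islets (SD), a log2 fold change of -1.002 ± 0.20 and an adjusted p of 5.4e-04. Mt-nd2 gave -1.13 ± 0.23 and Mt-nd5 -0.98 ± 0.22, with adjusted p of 8.6e-04 and 0.00152. Mt-cyb of complex III gave -0.64 ± 0.22, Mt-co3 of complex IV -0.67 ± 0.17, and Mt-atp6 of complex V -0.67 ± 0.20. Each complex with subunits from both genomes thus had lower mRNAs of mitochondrial origin. Mt-co1, Mt-co2 and Mt-nd3 were not called, at -0.26 ± 0.21, 0.052 ± 0.19 and -0.38 ± 0.30. Mt-nd6, the only one encoded on the light strand, gave 0.53 ± 0.17, and its reads may mix with those of the opposite strand. The number lower was 9 with DESeq2 size factors, library totals and totals without acinar markers, 6 with the acinar covariate and 0 with the macrophage and mesenchymal covariates. Sham 46 had the lowest sum of these mRNAs of all libraries, 4600 CPM, and the highest sum of nuclear members among sham libraries, 4731 CPM.

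Of the chain genes that the letter patterns leave out, Cox4i2, an isoform of complex IV regulated by oxygen, was called higher, with 9.13 ± 1.61 CPM in PX and 5.72 ± 1.47 CPM in sham islets (SD), a log2 fold change of 0.67 ± 0.15 and an adjusted p of 0.00151. The main isoform Cox4i1 gave 0.26 ± 0.13 with an adjusted p of 0.147, and cytochrome c (Cycs) 0.73 ± 0.32 with 0.0864; in all 1 of 7 tested was called. Of 43 assembly factors 2 were higher and 2 lower, with a median of 0.0045. The higher ones, Cox14 and Pet100, serve complex IV, at 0.75 ± 0.21 and 0.48 ± 0.16. The lower ones were Taco1, a translational activator of Mt-co1, at -0.31 ± 0.11, and Foxred1, a complex I factor, at -0.29 ± 0.11. Of 16 regulators of mitochondrial biogenesis 0 were higher and 1 lower: Twnk, the helicase of mitochondrial DNA, gave -0.46 ± 0.14 with an adjusted p of 0.01703. Tfam, the mitochondrial transcription factor, gave -0.27 ± 0.11 with 0.05295, Nrf1 -0.12 ± 0.12, Gabpa -0.16 ± 0.13 and Esrra 0.49 ± 0.20, none called. Of 15 genes of the citric acid cycle and its entry 3 were higher (Sucla2, Pdha1 and Dlst) and 1 lower, Pc, pyruvate carboxylase, at -0.40 ± 0.13, with a list median of 0.092. Of 74 mitochondrial ribosomal proteins 1, Mrpl17, was higher at 0.57 ± 0.15, with a median of 0.17. The number of ribosomal protein genes called higher was 8 with DESeq2, 5 with DESeq2 size factors and with TMM scaled to sham 47, and 0 with the acinar covariate. Of all tested genes 18.0%, 16.6%, 16.7% and 10.6% were called higher in these fits, in that order. Leaving out 1 library gave 1 to 14 of the ribosomal protein genes, with 14 without PX 37 and 9 without sham 46. There 18.4% and 19.8% of all tested genes were called higher. With library totals the medians of the citric acid cycle and ribosomal lists were -0.16 and -0.12, and 0 genes of either list were called higher. The assembly factors had 0 lower with DESeq2 and with TMM scaled to sham 47.

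The PX animals differ in BG, and the slope of each gene on BG was fitted within the 11 PX libraries, per 10 units of BG. No member was called among 76 tested, and no gene among 14442 (0% of genes). The smallest adjusted p of a member was 0.331, for Cox7b, whose slope was 0.17 ± 0.049 (SE) on the log2 scale. At an unadjusted p under 0.05 there were 21 members, all with positive slopes, against 5.61% of genes with a positive and 6.55% with a negative slope at that level. DESeq2 called 27 genes and 0 members. Slopes were above 0 for 60 of 76 members and for 46.7% of genes, and the median was 0.066 for members and -0.0065 for all genes. By complex the median slope was 0.053 for complex I, 0.061 for II, 0.084 for III, 0.10 for IV and 0.060 for V.

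The highest slopes were those of Ndufc1 at 0.23 ± 0.068, Atp5f1e, the epsilon subunit of the ATP synthase, at 0.21 ± 0.066, and Ndufa7, an accessory subunit of complex I, at 0.20 ± 0.076. The lowest were Ndufb7 at -0.16 ± 0.16, Ndufa3 at -0.15 ± 0.11 and Uqcrb at -0.074 ± 0.071, the first 2 of them accessory subunits of complex I. Called higher in PX does not go with a slope in each gene: Ndufb11 had -8.5e-04 ± 0.055 and Ndufb6 0.0023 ± 0.060. The count at an unadjusted p under 0.05 rested on PX 65, the library of BG 174, and was 1 without it, where the median slope was 0.052 and 57 of 76 slopes were above 0. With the acinar score as a covariate it was 4, and with library totals, or totals without acinar markers, it was 0 and the median slope turned to -0.033 and -0.013, beside -0.099 and -0.078 for all genes. The share of all genes at that unadjusted level was not counted in these alternative fits. The acinar markers themselves had a median slope of 0.29, above 0 in 10 of 10.

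**Figure D5:**
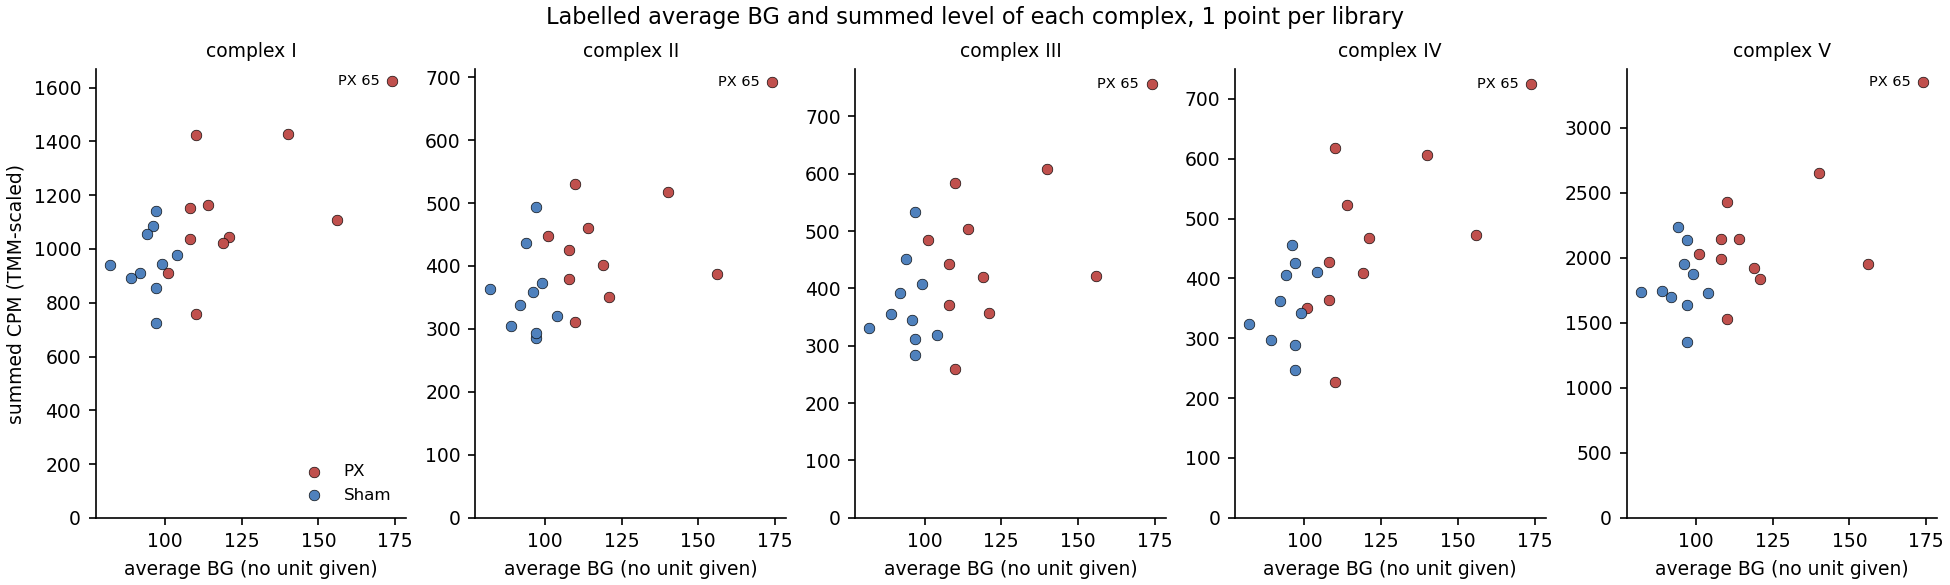
Summed TMM-scaled CPM of the members of each complex, 1 panel a complex, against the labels' average BG (unit not given), 1 point a library, PX and sham marked apart. PX 65, at BG 174, is the highest point of every panel; over all complexes its sum is 7147 CPM, while that of PX 41, at BG 156, is 4341 CPM, below the highest sham sum of 4731 CPM.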

How the data were processed

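Polyadenylated RNA of rat islets was sequenced in 21 libraries with a directional kit, per the labels. The tools named in the submitters' processing notes are Subread, featureCounts, limma and FastQC; the genome build is not given in the sources used here, nor is the strand setting. Deposited counts are whole reads per gene name with a gene length, per the file headers, with no normalization. The authors' deposited table gives a log2 fold change, a linear fold, a mean log2 expression, a p-value and an adjusted p per gene.

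TMM factors, the filterByExpr gene filter (minimum count 10, total 15) and all main fits were made with edgeR 4.0.16 under R 4.3.3. It fitted robust quasi-likelihood models over all genes, for PX against sham and for BG within PX. Tests were two-sided with Benjamini-Hochberg adjustment over all tested genes at 0.05. Each standard error is the log2 fold change divided by the root of its F statistic. All CPM carry the TMM scaling, a prior count of 2 entered log2 values, and levels between genes are per kilobase of the deposited length. Only the main edgeR fits were tried on simulated counts, drawn with the spread fitted to these data and known changes in some genes. The outcome is not reported here, and the alternative fits were not tried in this way. Alternatives were other scalings and filters, DESeq2 1.42.0, limma 3.58.1 voom, marker scores as covariates, PX animals of low BG, and fits without single libraries; dropping PX 65 together with sham 46 was added after seeing the data. Promoter sequences are RefSeq's (GRCr8). The floor given for genes with 0 counts covers counting error only, while standard errors and SDs also hold the spread among libraries.

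The members, gene lists and tests were chosen with earlier results of these data known. Named genes were up to 5 called members per complex by p, the highest and lowest of each complex, the 3 highest and lowest BG slopes, and the isoform pairs, complex I core, complex II and catalytic ATP synthase genes; from other lists up to 3 by p. Other genes, such as Ndufb4, were named after their values were seen. Of the members and markers, 1 each is counted in the totals but not reported by name here.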

Additional observations from a re-analysis of the deposited data

Results flagged for a closer look

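In 1 of the 38 groups of values examined for a sample far from the others, a single library stood apart. Cox6a1, the main isoform of a regulatory subunit of complex IV, had a log2 CPM of 6.60 in sham 46, while the other 9 sham libraries lay between 4.68 and 5.47. The gap to the nearest was 0.589 of the whole range. Chance alone flags about 5% of such groups. In the same library the summed nuclear members were the highest of the sham libraries, at 4731 CPM, and the summed mitochondrial mRNAs the lowest of all, at 4600 CPM; the part of these in the Cox6a1 value was not tested.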

How the results depend on the processing

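Against 12 members called higher in PX with TMM and edgeR, DESeq2 called 20, the fit without a low count filter 7 of 82, the PX group limited to its 8 animals with BG up to 121 called 1, and the acinar covariate 2. Library totals, totals without acinar markers and the macrophage and mesenchymal covariates each called 0 members. They called 7.54%, 9.37% and 0.0533% of all tested genes higher, in that order. Leaving out 1 library gave from 2 members, without PX 65, to 28, without PX 37. Of all tested genes 13.1% were called higher without PX 65 and 18.4% without PX 37. With TMM held to 1 library the range was 9 to 28, with 19 without PX 36 or sham 21, 25 without PX 44 and 27 without sham 46. None of these fits called a member lower. The fit with macrophage and mesenchymal covariates called 7 genes higher and 2 lower in all. In it the unadjusted p of edgeR's test was under 0.05 for 16 members below 0 and for 2 above, with no share of all genes counted at that level. The members' median turned to -0.30 with the macrophage and mesenchymal covariates, and there 6 of the called members named by the rule reversed: Atp5mc3 to -0.16, Atp5pd to -0.33, Cox6b1 to -0.55, Ndufv2 to -0.10, Sdhb to -0.092 and Uqcrh to -0.19; the cause was not tested. Named members that were not called are judged by the size of their move, and 16 of them changed sign in that fit and 11 with library totals. The median slope on BG turned to -0.033 with library totals and -0.013 with totals without acinar markers, and 0 members were called for the slope under any setting. TMM scaled to sham 47 was not run for the slope, since that is no PX library. No paired analysis was possible because the groups share no animal numbers. Members of under 10 CPM, such as Ndufb4, Ndufb6 and Ndufa4l2, rest on few counts in each library, which limits their precision.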

Other observations

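Other members close to the threshold, after Sdhc and Ndufa4l2, belong to several complexes. Ndufa2, an accessory subunit of the NADH-oxidising arm, had 13.8, 25.8 and 52.9 CPM (lowest, median and highest) in PX and 12.1, 20.3 and 27.1 CPM in sham islets, a log2 fold change of 0.52 ± 0.20 (SE) and an adjusted p of 0.0526 by edgeR. Cox5b, with 13.1, 34.7 and 64.4 CPM in PX and 15.3, 26.2 and 35.5 CPM in sham islets, had an adjusted p of 0.0604, and Uqcrq, with 19.2, 50.2 and 90.8 CPM in PX and 23.02, 32.3 and 63.5 CPM in sham islets, one of 0.0621. Atp5po, which links the head of the ATP synthase to its stalk, gave 0.37 ± 0.15 (SE) and 0.0655, and its slope on BG was 0.12 ± 0.038 with an unadjusted p of 0.00919. All 4 have median levels higher in PX, and the groups overlap for each. These genes were chosen after their values were seen.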
